A study of Saccharomyces cerevisiae with 6 samples.

Results

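The genes described here are 10 genes of phosphate release and storage in Saccharomyces cerevisiae. They were taken by their symbols in the platform annotation, with earlier results of these data known. They are the acid phosphatase genes PHO3, PHO5, PHO11 and PHO12, the alkaline phosphatase gene PHO8, the VTC1, VTC2, VTC3 and VTC4 genes of the vacuolar transporter chaperone complex, and PHM8. All 10 were measured, among 6248 genes and unnamed probes in all. RNA came from 6 cultures, 3 from wild type 59A and 3 from 59A PDR8-S288c, sampled in stationary phase after the release of 66 g/l CO2 (70% of fermentation progress) in the synthetic must SM425. Both groups share the background of 59A, a haploid MATa ho derivative of the wine strain EC1118, the same medium with added p-aminobenzoic acid and iron chloride, and fermentation under airlock. 59A PDR8-S288c carries PDR8, which encodes a transcription factor of pleiotropic drug resistance, in the form of the laboratory strain S288c. By the methods this strain was made by deleting PDR8 with a hygromycin cassette and replacing it with the S288c gene and a loxP-kanMX4-loxP cassette in the terminator. No removal of that second cassette is described and the number of transformants is not given in the sources used here. An effect of the S288c allele therefore cannot be told apart from one of the cassette.

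Yeast cells obtain phosphate from organic compounds through phosphatases. Acid phosphatases are secreted to the cell wall and the medium and free phosphate there, while the alkaline phosphatase Pho8p acts in the vacuole. Phosphate in excess is stored in the vacuole as polyphosphate, chains of phosphate that the vacuolar transporter chaperone complex makes and moves across the vacuolar membrane. The transcription factor Pho4p, with Pho2p, induces most of these genes when phosphate is short, and the cyclin and kinase pair Pho80p and Pho85p hold Pho4p back when it is plentiful. PHO3 is set apart by its control, since it is repressed by thiamine rather than by phosphate.

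Each culture was hybridized to a one-color array of a single slide. The arrays of 59A PDR8-S288c lay in blocks 5, 6 and 7 and those of the wild type in blocks 1, 2 and 8. Strain and position on the slide are therefore largely confounded. Values are log2 of the spot-median intensity after quantile normalization, with 5.3 as background and 16 as saturation. The median signal was between 8.06 and 8.07 on every array. The array of wild type replicate 3 holds no value for 2066 probes (32.9%), among them those of PHO8, VTC2 and VTC3, so these 3 genes compare 3 cultures with 2. In the check of the strains, the PDR8 probe gave 7.21 and 7.26 log2 units in wild type replicates 1 and 2, and 6.76, 6.77 and 6.70 in the cultures with the S288c allele. This was a log2 fold change of -0.49 (SE 0.05, limma adjusted p = 0.026). PDR8 itself differs in sequence between the strains and how well its probe pairs with either form was not tested, so a lower signal is not shown to be less RNA. QDR2, a multidrug transporter gene known to respond to PDR8, was 2.22 log2 units higher in 59A PDR8-S288c (SE 0.07, limma adjusted p = 1.41e-05). The number of arrays limits the precision. Cells were pooled in each culture, so a lower level in every cell and a loss from some cells cannot be told apart.

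No gene of the 10 passed an adjusted p under 0.05 between the strains from limma, with p-values adjusted over all 6248 features by the Benjamini-Hochberg method. Of all features, 1.54% passed, 0.512% higher and 1.02% lower in 59A PDR8-S288c. At an unadjusted p under 0.05 there were 3 of the 10 genes, PHO3 on the lower side and PHO12 and VTC1 on the higher, while 18.1% of all features were past that limit, 9.99% higher and 8.1% lower. A positive log2 fold change means a higher signal in 59A PDR8-S288c than in the wild type. The median over the 10 genes was 0.07, with 8 above 0 and 2 below, beside a median of 0.01 over all features. PHO3 had the widest difference of the 10 genes, at -0.60. The other 9 lay between the 5th and the 95th percentile of all features (-0.24 and 0.20), and 4 of them between the 25th and the 75th (-0.06 and 0.07).

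**Figure D1:**
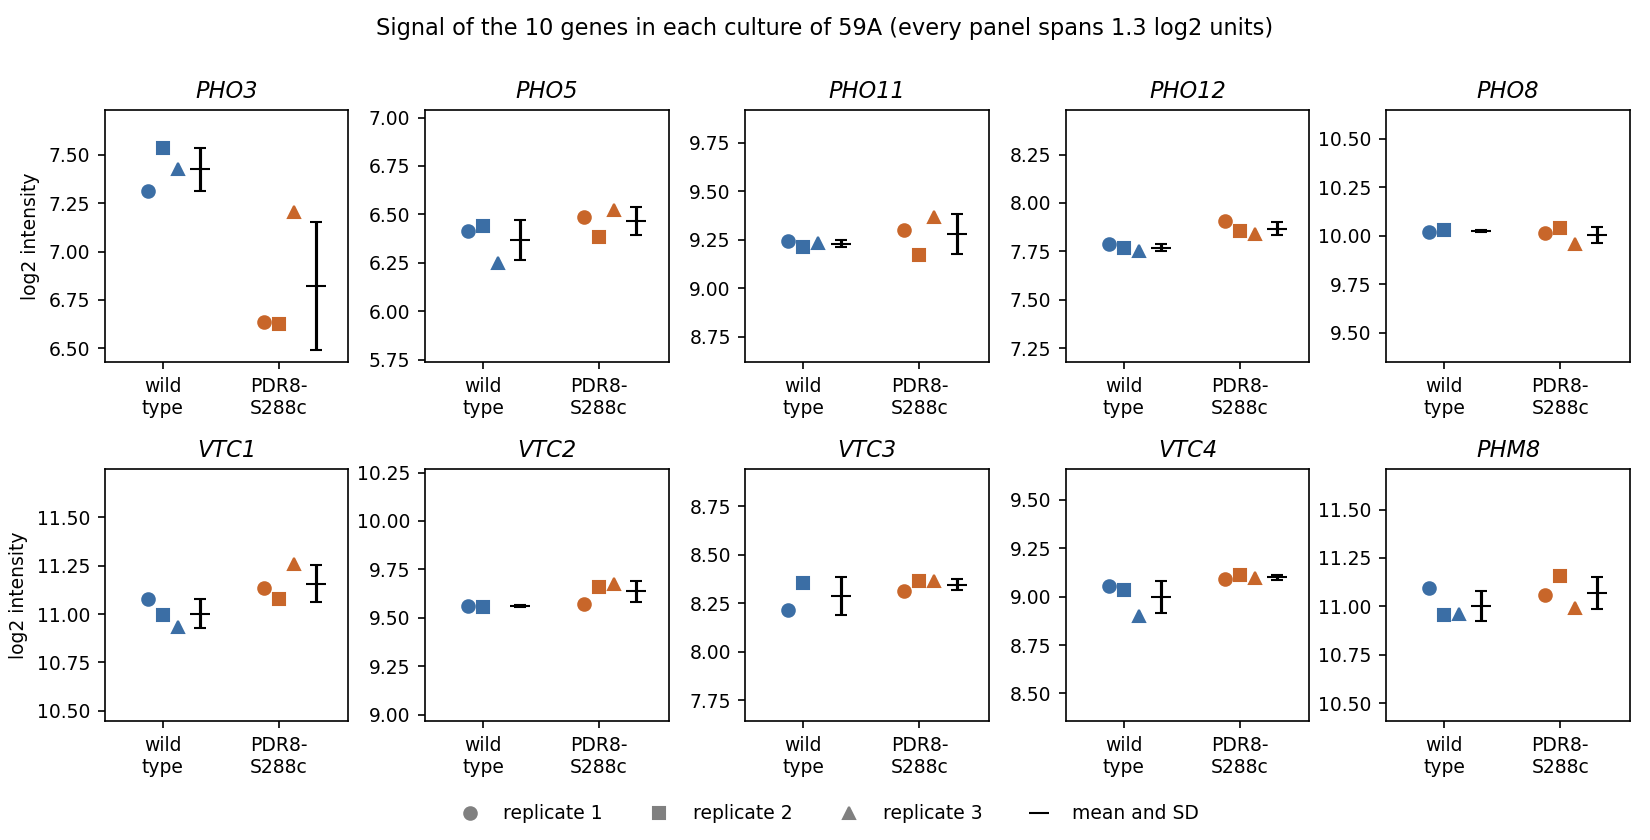
Normalized log2 intensity (vertical axis) of the 10 genes in each culture of wild type 59A (blue) and 59A PDR8-S288c (orange), with circles, squares and triangles for replicates 1, 2 and 3 and a black bar for the mean with its SD. PHO3 was between 7.31 and 7.53 in the wild type, against 6.63, 6.63 and 7.20 in 59A PDR8-S288c, while the strains lay close together in the other 9 genes.

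Among the secreted acid phosphatases, PHO3 encodes the constitutive acid phosphatase, which releases thiamine from thiamine phosphates at the cell surface. Its signal was 7.31, 7.53 and 7.42 log2 units in wild type replicates 1, 2 and 3, and 6.63, 6.63 and 7.20 in the same replicates of 59A PDR8-S288c. All 3 cultures with the S288c allele were below all 3 of the wild type, but replicate 3 stood closer to the wild type than to its own group. It was 0.11 log2 units below the lowest wild type culture and 0.57 above the next culture of 59A PDR8-S288c. The strain means were 7.42 ± 0.11 (SD, n = 3) for the wild type and 6.82 ± 0.33 (SD, n = 3) for 59A PDR8-S288c. This gave a log2 fold change of -0.60 (SE 0.15, 95% confidence interval -0.96 to -0.25), which is a signal 1.52-fold lower. It did not pass the test over all features (limma adjusted p = 0.0957). An exact permutation test of the 6 cultures gave a two-sided p = 0.1, and no smaller p is possible with 3 cultures in each group. The log2 fold change of PHO3 ranked 29 from the lowest of 6248.

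The spread of PHO3 between the cultures of 59A PDR8-S288c was also wide, with rank 70 from the highest SD of 6248 features. Without replicate 3 of that strain the log2 fold change was -0.79 and passed the test (limma adjusted p = 0.0168). No other single array changed the call, with log2 fold changes from -0.66 to -0.51. In 4 of the 4190 features measured on all 6 arrays, replicate 3 was over 0.5 log2 units above both other cultures of 59A PDR8-S288c. Besides PHO3 these were RNR3, a gene of ribonucleotide reductase, SPS100, a gene of spore wall maturation, and 1 custom probe not paired with a gene here. All 3 were found after their values were seen. The same count was 36 and 1 for replicates 1 and 2 of that strain, and 7, 0 and 6 for wild type replicates 1, 2 and 3. When slide position was added as a covariate, the log2 fold change of PHO3 was -0.49 (limma adjusted p = 0.556), in a fit where the strain difference rests on the only wild type culture in the same part of the slide.

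PHO5 encodes the main phosphate-repressed acid phosphatase and is the neighbor of PHO3 on the chromosome. Its signal was 6.41, 6.44 and 6.25 log2 units in wild type replicates 1, 2 and 3, and 6.48, 6.38 and 6.52 in those of 59A PDR8-S288c. The strains overlapped, and the lowest culture lay 0.95 log2 units above background. A log2 fold change of 0.10 (SE 0.07, 95% confidence interval -0.06 to 0.25, limma adjusted p = 0.485) was obtained. Without wild type replicate 3 it was 0.04. The interval of PHO5 from all 6 arrays lay wholly above that of PHO3. The difference between the changes of the 2 genes was not tested. Whether the probe of either gene also reads the other was not tested either, since no probe sequences were used.

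PHO11 and PHO12 encode further phosphate-repressed acid phosphatases and are near-identical copies close to chromosome ends. PHO11 is the last protein-coding gene of its chromosome in the assembly used for names (R64), and 3 genes lie beyond PHO12. The probe sequences were not used here, so the share of each copy in either signal is uncertain. PHO11 was at 9.24, 9.21 and 9.23 log2 units in wild type replicates 1, 2 and 3 and at 9.30, 9.17 and 9.37 in 59A PDR8-S288c. The wild type cultures of PHO11 lay within 0.03 log2 units of each other, and those of 59A PDR8-S288c on both sides of them. Its log2 fold change was 0.05 (SE 0.06, 95% confidence interval -0.08 to 0.18, limma adjusted p = 0.694), and it was 0.0057 without replicate 3 of 59A PDR8-S288c and 0.11 without replicate 2.

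The PHO12 probe gave 7.79, 7.77 and 7.75 log2 units in the wild type cultures and 7.91, 7.85 and 7.84 in those of 59A PDR8-S288c. Every culture of 59A PDR8-S288c lay above the wild type, the nearest by 0.05 log2 units, and the log2 fold change was 0.10 (SE 0.04, 95% confidence interval 0.00074 to 0.20, limma adjusted p = 0.275; exact permutation test, two-sided p = 0.1). Of the 7 genes of the 10 that were measured on all 6 arrays, PHO3, PHO12 and VTC4 did not overlap between the strains, 1 lower and 2 higher. The share without overlap was 24.6% of all 4190 features measured on all 6 arrays, 13.5% higher and 11.1% lower.

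**Figure D2:**
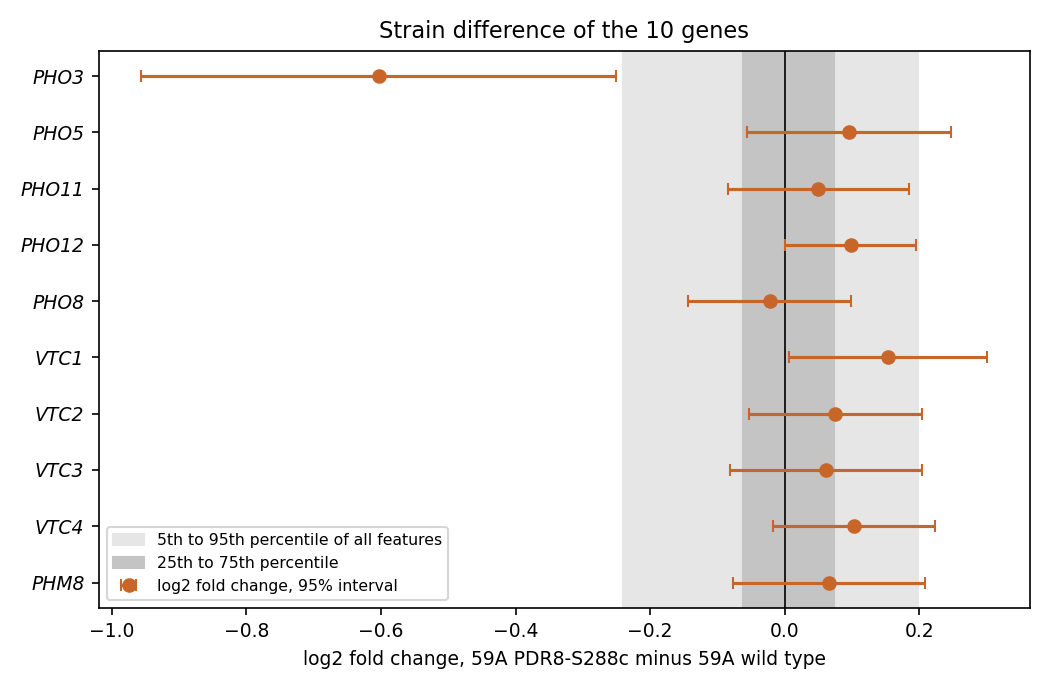
Log2 fold change of each gene (horizontal axis, 59A PDR8-S288c minus wild type) with its 95% confidence interval from limma, over gray bands for the 25th to 75th and the 5th to 95th percentile of all 6248 features. PHO3 at -0.60 lies outside both bands, and the other 9 genes lie inside the wider one.

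PHO8 encodes the vacuolar alkaline phosphatase, a repressible enzyme that is activated by proteases of the vacuole. It was at 10.02 and 10.03 log2 units in wild type replicates 1 and 2 and at 10.01, 10.04 and 9.96 in 59A PDR8-S288c. The cultures of both strains overlapped, with a log2 fold change of -0.02 (SE 0.05, 95% confidence interval -0.14 to 0.10, limma adjusted p = 0.857), the smallest in size of the 10 genes. PHM8 encodes a soluble phosphatase of lysophosphatidic acid and of nucleotides that is known to be induced when phosphate is short. It was at 11.09, 10.96 and 10.96 log2 units in the wild type cultures and at 11.06, 11.16 and 10.99 in those of 59A PDR8-S288c. Wild type replicate 1 stood above 2 of the 3 cultures of 59A PDR8-S288c. Its log2 fold change was 0.07 (SE 0.06, 95% confidence interval -0.08 to 0.21, limma adjusted p = 0.616).

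The vacuolar transporter chaperone complex is built from Vtc4p, the subunit that polymerizes phosphate, Vtc1p, a small membrane subunit, and either Vtc2p or Vtc3p. All 4 genes had a log2 fold change above 0, with a median of 0.09 and a range from 0.06 to 0.15, and none passed the test (adjusted p between 0.259 and 0.638 from limma). Of all 6248 features, 3311 were above 0. With the brighter of the VTC4 probes, the 95% confidence intervals of the 4 genes ran from -0.08 at the lowest to 0.30 at the highest.

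VTC4 was measured by 2 probes. The brighter gave 9.05, 9.03 and 8.90 log2 units in the wild type cultures and 9.09, 9.11 and 9.10 in those of 59A PDR8-S288c. The cultures with the S288c allele lay within 0.02 log2 units of each other and all above the wild type, by 0.04 at the nearest, which gave a log2 fold change of 0.10 (SE 0.05, 95% confidence interval -0.02 to 0.22, limma adjusted p = 0.342; exact permutation test, two-sided p = 0.1). The dimmer probe gave 7.11, 7.10 and 6.85 log2 units in the wild type cultures and 7.20, 7.20 and 7.30 in those of 59A PDR8-S288c, again without overlap. Its log2 fold change of 0.21 (SE 0.08, 95% confidence interval 0.03 to 0.40, limma adjusted p = 0.210 over all probes) had the same sign and did not pass the test either. On both probes wild type replicate 3 was the lowest culture, and without this array the log2 fold change of the brighter probe was 0.06.

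VTC1 was at 11.08, 10.99 and 10.93 log2 units in the wild type cultures and at 11.13, 11.08 and 11.26 in those of 59A PDR8-S288c. The highest wild type culture and the lowest of 59A PDR8-S288c were equal to 2 decimals. The log2 fold change of 0.15 (SE 0.06, 95% confidence interval 0.0070 to 0.30, limma adjusted p = 0.259) was the highest of the 10 genes. VTC2 and VTC3 have only 2 wild type values each. VTC2 was at 9.56 and 9.56 log2 units in the wild type cultures and at 9.57, 9.66 and 9.67 in those of 59A PDR8-S288c, with a gap of 0.0086 between the strains and a log2 fold change of 0.08 (SE 0.05, limma adjusted p = 0.513). VTC3 was at 8.22 and 8.35 log2 units in the wild type cultures and at 8.31, 8.37 and 8.36 in those of 59A PDR8-S288c, so that the strains overlapped. Its log2 fold change was 0.06 (SE 0.06, limma adjusted p = 0.638).

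Among the cultures, the genes did not share a single order. In 59A PDR8-S288c, replicate 3 was the highest culture in 5 of the 10 genes and the lowest in 3. Among the wild type cultures of the 7 genes measured on all 6 arrays, replicate 1 was the highest in 5 and the lowest in 1, and replicate 3 was the lowest in 4 and the highest in 0. PHO3, PHO5, PHO11 and VTC1 had replicate 3 as the highest and replicate 2 as the lowest culture of 59A PDR8-S288c, while PHO8 and PHM8 had the reverse. The SD within a strain of the 9 genes other than PHO3 was at most 0.10 log2 units.

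**Figure D3:**
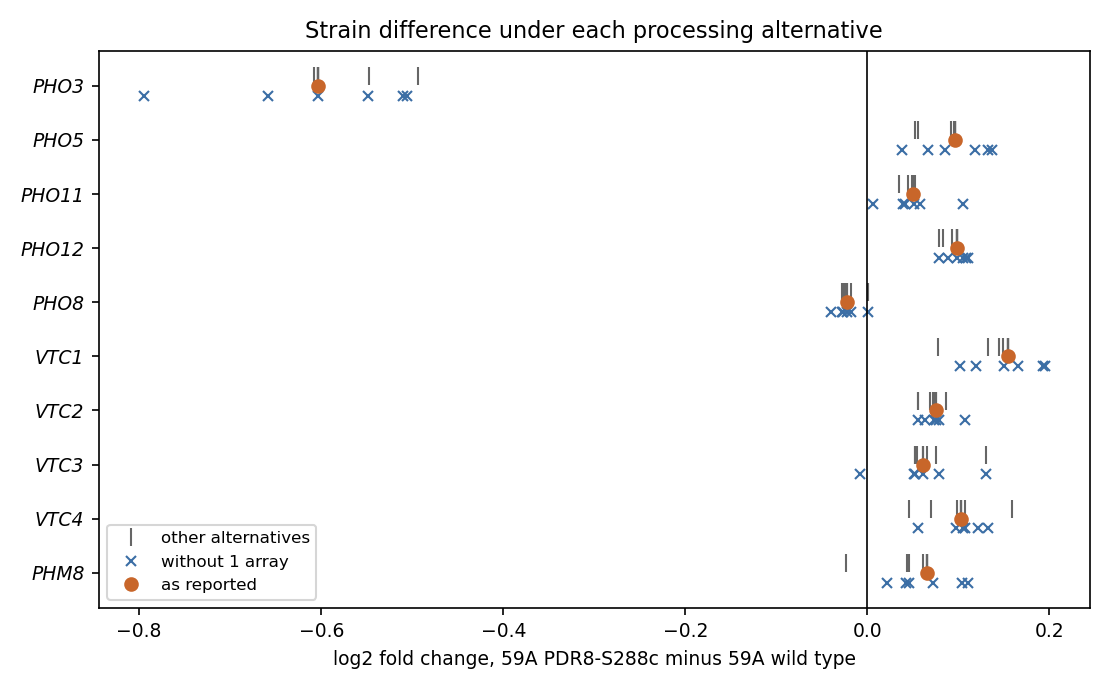
Log2 fold change of each gene (horizontal axis) as reported (orange circles), without each single array (blue crosses) and under the other processing alternatives (gray bars). PHO3 stays between -0.79 and -0.49, and PHO8, VTC3 and PHM8 cross 0 under some alternatives.

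The other genes of the pathway were taken from lists, and in none of these lists did a gene pass an adjusted p under 0.05 from limma. Of all features 1.54% passed, so with lists this short the absence of calls says little about them. Over all 6248 features, 3311 were above 0 and 2937 below. Of 11 genes that control the pathway, 10 were measured, 9 of them above 0, with a median of 0.10. Only 4 of these 10 were measured on all 6 arrays. PHO4, the activator, and PHO80, its cyclin regulator, had log2 fold changes of 0.0070 (SE 0.07) and 0.0026 (SE 0.06). The widest differences were in DDP1, a gene of diphosphoinositol polyphosphate breakdown, with -0.19 (SE 0.06, limma adjusted p = 0.168), and KCS1, a gene of inositol pyrophosphate synthesis, with 0.15 (SE 0.06, limma adjusted p = 0.271). Both have 2 wild type values. The list of polyphosphate breakdown genes and a partner of the VTC complex held 4 genes, of which 2 were measured under a symbol. These were PPN1 at 0.05 (SE 0.05) and PPX1 at -0.07 (SE 0.06), both of polyphosphate breakdown. PPN2 and the partner VTC5 were not found under their symbols.

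All 9 genes of phosphate and glycerophosphodiester uptake were measured, with a median of 0.06 and 6 above 0. The permease gene GIT1, which serves the entry of glycerophosphoinositol, reached a log2 fold change of 0.52 (SE 0.10, limma adjusted p = 0.0599). GDE1, a gene of glycerophosphocholine breakdown, had one of 0.28 (SE 0.06, limma adjusted p = 0.0797) with 2 wild type values. The paper reports GIT1 as upregulated on these same arrays, past an adjusted p threshold stricter than the one used here. The default limma fit used here did not reproduce that call, and the cause was not tested. Since the arrays are the same, the direction of GIT1 is not independent evidence. PHO84, the gene of the high-affinity phosphate transporter, stood at 6.01 ± 0.06 log2 units (SD, n = 3) for the wild type and 6.20 ± 0.06 for 59A PDR8-S288c, within 1 log2 unit of background in both. In the 8 other phosphate-related genes the median was 0.03. The widest differences there were in PHO13, a p-nitrophenyl phosphatase gene, with -0.28 (SE 0.11, limma adjusted p = 0.229), and in SDT1, a pyrimidine nucleotidase gene, with 0.08 (SE 0.07, limma adjusted p = 0.630).

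Since PHO3 is repressed by thiamine, it was set beside 19 genes of thiamine synthesis, uptake and control and genes expressed with them. None passed the test, beside 1.54% of all features, which says little for a list of this size. Of the 19, 12 were below 0 and 7 above, beside 2937 below and 3311 above of all 6248 features. Their median was -0.03 with a range from -0.27 to 0.12. PHO3 at -0.60 lay below all of them. THI22 had a log2 fold change of -0.27 (SE 0.08, limma adjusted p = 0.171) with 2 wild type values, and THI11, which belongs to the near-identical THI5 family of thiamine precursor synthesis, one of -0.19 (SE 0.20, limma adjusted p = 0.649). THI11 was at 9.55, 9.56 and 10.30 log2 units in wild type replicates 1, 2 and 3 and at 9.78, 9.49 and 9.55 in 59A PDR8-S288c. Only wild type replicate 3 thus lay above all cultures of 59A PDR8-S288c. THI4, a gene of thiazole synthesis, had one of 0.03 (SE 0.09). Over the 13 thiamine genes measured on all 6 arrays, the median deviation from each gene's mean was -0.0019, -0.09 and 0.13 log2 units in wild type replicates 1, 2 and 3 and 0.07, -0.05 and -0.03 in those of 59A PDR8-S288c. The median of the thiamine genes in replicate 3 of 59A PDR8-S288c, the culture with the highest PHO3 of that strain, was thus between those of its other cultures. The part of thiamine in the level of PHO3 was not tested.

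**Figure D4:**
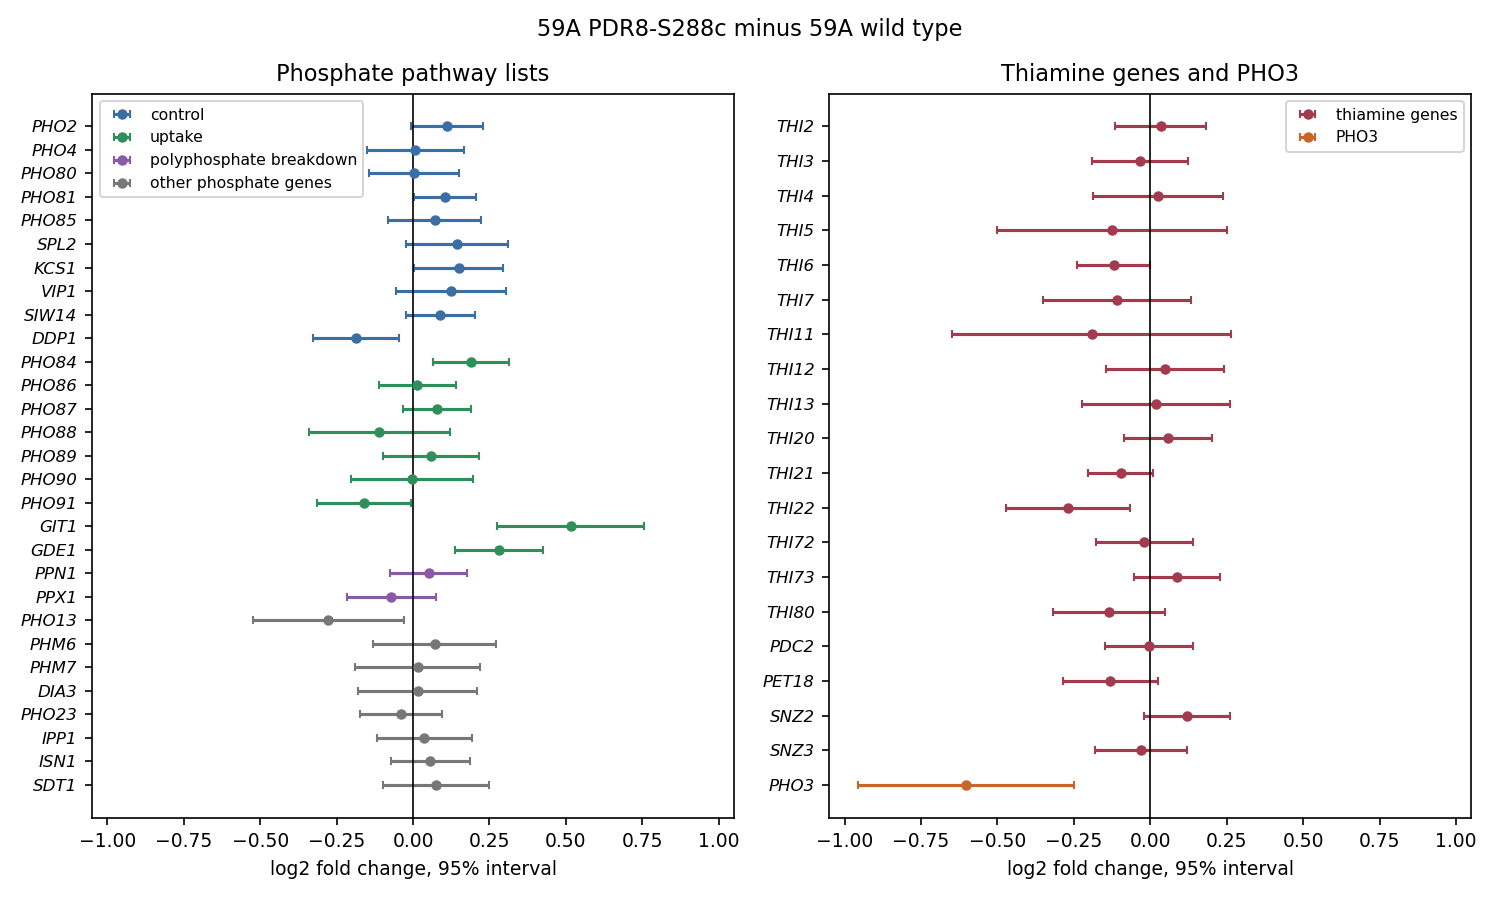
Log2 fold change (horizontal axis, 59A PDR8-S288c minus wild type) with its 95% confidence interval from limma for the genes of the phosphate pathway lists (left) and for the thiamine genes with PHO3 (right). GIT1 at 0.52 is the highest on the left, and PHO3 at -0.60 lies below all 19 thiamine genes on the right.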

How the data were processed

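The authors scanned the arrays with a GenePix scanner and normalized the spot-median intensity by the quantile method (limma, R 2.13.1). The methods give 55 arrays for the whole set normalized together and do not say whether these 6 were among them. The deposited values are log2 intensities. These values were used without further scaling, so that changes in the total amount of RNA cannot be seen. Of 6271 probes, 5220 have a gene symbol in the platform annotation and 1051 have none here. A gene with several probes (22 genes, of the 10 only VTC4) was represented by the probe with the highest mean, which left 6248 features. For the strain comparison, lmFit and eBayes of limma 3.58.1 (R 4.3.3) were run in their default form and without a block, and p-values were adjusted over all features by Benjamini-Hochberg, as in the methods. The methods' threshold was 0.01, and 0.05 was used here. The fit was tested on simulated data. Plots were drawn with matplotlib 3.10.9. The labels call the 3 cultures of a strain biological replicates.

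The 10 genes, the lists and the alternatives were chosen with earlier results of these data known. Named were all 10 genes, the check genes PDR8 and QDR2 and, in each list, the genes past the threshold or otherwise the 2 with the largest change. PHO4, PHO80, PHO84 and THI4 were added for their roles after their values were seen. The neighbors TIM12, PBY1 and SEC4 were also named after their values were seen, as those with the largest changes in size among the measured neighbors. RefSeq's table of the assembly R64 served for the order of genes only, and no sequences were used here. The fit was repeated after centring arrays on their medians, after quantile normalization was applied again, without dim probes (both means within 1 log2 unit of 5.3), with features present on all 6 arrays, with a gene's probes averaged, with a robust variance trend, with weighted arrays, with replicate number as a block, with slide position (lower or upper blocks) as a covariate, and without each array in turn.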

Additional observations from a re-analysis of the deposited data

How the results depend on the processing

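A total of 16 alternatives were tried. The setting with only features on all 6 arrays gave no value for PHO8, VTC2 and VTC3. Of the 10 genes, 0 passed an adjusted p under 0.05 from limma in 15 of the alternatives and 1 (PHO3) without 59A PDR8-S288c replicate 3. The causes were not tested. PHO8 had a log2 fold change of -0.040 to 0.00081 when single arrays were left out (0.00081 without 59A PDR8-S288c replicate 3), and 0.00081 with the replicate block under either numbering. VTC3 had one of -0.0080 to 0.13 when single arrays were left out (-0.0080 without wild type replicate 1, which leaves 1 wild type value), and PHM8 one of -0.023 with slide position as a covariate. The other 7 genes kept their sign, but in several the size rested on single arrays. When single arrays were left out, PHO5 lay between 0.04 and 0.14 (0.10 with all arrays), PHO11 between 0.0057 and 0.11 (0.05), VTC1 between 0.10 and 0.19 (0.15), VTC4 between 0.06 and 0.13 (0.10) and PHM8 between 0.02 and 0.11 (0.07). The lowest of these values came without 59A PDR8-S288c replicate 3 for PHO11 and VTC1, without replicate 2 of that strain for PHM8, and without wild type replicate 3 for PHO5 and VTC4. With slide position as a covariate, VTC1 fell to 0.08, VTC4 to 0.05 and PHO5 to 0.05, while VTC3 rose to 0.13. The median of the acid phosphatases was 0.07 with all arrays, 0.04 without replicate 3 of 59A PDR8-S288c, 0.04 without wild type replicate 3, 0.11 without replicate 2 of 59A PDR8-S288c and 0.04 with slide position as a covariate. The median of the 10 genes was between 0.05 and 0.09 and that of the VTC genes between 0.07 and 0.13 when single arrays were left out.

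The number of all features past the threshold was 96, against 152 under a trended robust variance, 208 under array weights, 6 under slide position as a covariate and 3 to 90 when an array was left out. In the uptake list 1 gene, GIT1, passed under the trended robust variance, under array weights and without wild type replicate 3 (0 to 1 when an array was left out).

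The replicate numbers did not pair the samples. With the numbers of the titles, cultures of equal number deviated together with correlations of 0.17, 0.34 and -0.43 over 4190 features, and 2 of 6 arrays correlated best with their own number. In 59A PDR8-S288c, 2 samples carry other numbers in their descriptions, with correlations of -0.05, -0.69 and -0.43. With the replicate block 19 features passed by the titles and 3 by the descriptions, none of the 10 genes among them.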

Other observations

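The genes next to the 10 genes on the chromosome, in the order of the R64 assembly, were read beside them. Of 17 such neighbors that are not themselves among the 10 genes, 16 were measured. None passed an adjusted p under 0.05 from limma, beside 1.54% of all features. With so few genes this count says little, and an effect of chromosome position was not tested. TIM12, a gene of mitochondrial protein import on the side of PHO3 away from PHO5, had a log2 fold change of -0.23 (SE 0.06, limma adjusted p = 0.103). PBY1, on the other side of PHO5, had one of 0.19 (SE 0.06, limma adjusted p = 0.135). SEC4, a gene of secretion next to VTC2, had one of 0.26 (SE 0.06, limma adjusted p = 0.0776).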
